A study of Homo sapiens with 24 samples.

Results

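The genes that make cholesterol and fatty acids were followed in MCF10A cells, an established non-tumorigenic human breast epithelial line, over the first 2 h after addition of epidermal growth factor (EGF). A list of 33 genes was used, made of the enzymes of sterol synthesis, the proteins that control those enzymes, carriers of cholesterol inside the cell and the enzymes of fatty acid synthesis. A gene was measured by the probe set whose only gene symbol was its own, and where a gene had more than 1 such probe set, the brightest over all arrays was taken. By this rule 31 of the 33 genes were measured, of 18417 genes in all. FDFT1, the squalene synthase, was not analysed here, and HSD17B7, a late sterol reductase, shared its only probe set with the pseudogene HSD17B7P2.

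The total RNA was read on 24 arrays of the type Affymetrix Human Gene 1.0 ST, which fall into 12 groups of 2 biological replicates. Cells had been transfected with 1 of 3 oligonucleotides: a non-targeting control (called control here), an siRNA oligonucleotide against hsa-miR-20a, whose cells are called si-miR-20a, or an siRNA oligonucleotide against hsa-miR-671-5p, whose cells are called si-miR-671. Each transfection was sampled at 0, 30, 60 and 120 min of EGF. All groups share the transfection reagent, Oligofectamine, and a growth medium with horse serum, insulin, hydrocortisone, cholera toxin and EGF, so that no group is of untransfected cells, and whether EGF or serum was withdrawn before the 0 min point is not stated in the sources that were used. The microRNAs themselves were not measured, so the effect of the oligonucleotides on them could not be checked, and nothing in the labels says whether the replicates were transfected on different days. Whatever the replicates share in culture, the p-values measure only the spread between these arrays.

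The arrays were alike in scale, with medians from 6.56 to 6.57 and maxima of up to 13.2 on the log2 scale, and replicates correlated at 0.973 to 0.992 over all tested probe sets. The lowest of these was the pair of si-miR-671 arrays at 120 min. The basal epithelial keratins KRT5 and KRT14 read on average 12.67 and 11.90, and both mark the basal cells of the breast epithelium. The measured markers of fibroblasts, blood, endothelium, fat and liver read 3.66 (LUM) to 8.04 (CD14), apart from the endothelial cadherin CDH5 at 10.25. The level of a probe set also depends on its probes, so the markers are a rough check, and levels of the 31 genes are not compared between genes. Among the 31 genes the second si-miR-20a array at 120 min stood apart. It held the highest of the 24 values for 10 of them and the lowest for 5, where each other array held at most 4 of either, and results that rest on it are given with and without it. That choice was made after the data were seen, and without it the lone array of its group is assumed to vary like the other groups.

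Cholesterol is built from acetyl-CoA through mevalonate, isoprenoid diphosphates, squalene and lanosterol. When sterols in the membrane of the endoplasmic reticulum run low, the escort protein SCAP carries the SREBP transcription factors, encoded by SREBF1 and SREBF2, to the Golgi, where proteases release their active part, which switches on most genes of this list. INSIG1 and INSIG2 hold SCAP and the SREBPs back when sterols are plentiful. Growth factor signalling through PI3K and mTORC1 is known to raise SREBP activity, and dividing epithelial cells need new sterols and fatty acids for their membranes.

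The mature microRNAs are shown because they name the 2 targeted groups, with the seed (bases 2 to 8) in capitals. The sequences are RefSeq's on GRCh38.p14. The label does not say which arm of miR-20a was meant, and the 5p arm, at chr13:91351072-91351094 on the plus strand, is printed. The miR-671-5p sequence lies at chr7:151238449-151238471 on the plus strand. The 2 seeds differ from each other.
hsa-miR-20a-5p: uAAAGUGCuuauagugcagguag
hsa-miR-671-5p: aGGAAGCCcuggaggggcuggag

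Whether EGF moved these genes was asked first, over the means of the 3 transfections (6 arrays at each time). In the 31 genes the change was small at 30 min, appeared in 3 sterol genes at 60 min and reached 13 genes at 120 min, 9 of them higher and 4 lower. INSIG1 and HMGCS1, the synthase that opens the sterol pathway, rose by the most, to 1.62-fold and 1.48-fold at 120 min. SREBF1 and the mevalonate kinase MVK fell by the most, 1.27-fold and 1.22-fold. Of the 8 fatty acid genes, 1 passed the test at 120 min, a count near the share of all probe sets called in either direction (13.4%). In RNA of whole cultures, a change of level in each cell and a change in the share of cells that express a gene cannot be told apart.

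A gene was called changed when limma's test, adjusted over 19460 probe sets by Benjamini and Hochberg's method, gave an adjusted p under 0.05. At 30 min 0.725% of all probe sets were called higher and 0.0411% lower, against 0 of the 31 genes, of which 0 had an unadjusted p under 0.05 and the smallest adjusted p was 0.87. At 60 min 3 genes were called higher against 2.16% of all probe sets, and 0 were called lower against 0.493%. At 120 min 9 of 31 were called higher, where 7.13% of all probe sets were, and 4 of 31 lower, where 6.27% were. The median change of the 31 genes at 120 min was -0.01 on the log2 scale, beside 0.01 over all probe sets tested. By mean level each of the 31 genes lay at percentile 72.6 or higher among the probe sets tested. When probe sets below the median level were left out, 14 genes were called, 10 higher and 4 lower. Of the probe sets kept, 26.2% were then called in either direction. Without the second si-miR-20a array at 120 min 9 were higher and 2 lower (10.6% of all probe sets in either direction).

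**Figure D1:**
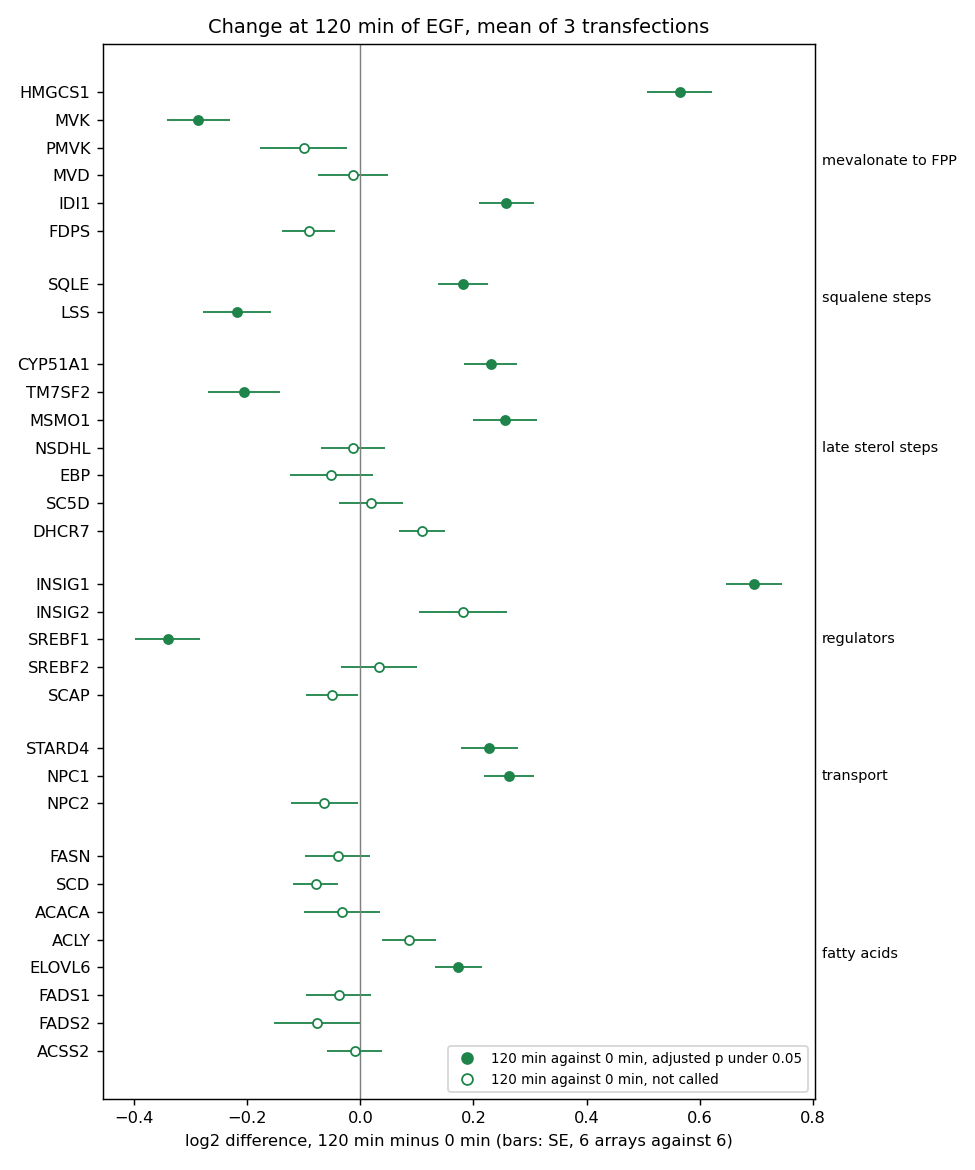
Log2 difference between 120 and 0 min of EGF for each of the 31 measured genes, averaged over 3 transfections, with the standard error of the model as bars (6 arrays against 6); filled points have an adjusted p under 0.05. INSIG1 (0.70) and HMGCS1 (0.57) lie farthest to the right, and SREBF1 (-0.34) and MVK (-0.29) farthest to the left.

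INSIG1 is the negative regulator of the pathway and at the same time a classical SREBP target. In control cells it read 9.45 and 9.39 at 0 min, 9.45 and 9.44 at 30 min, 9.78 and 9.80 at 60 min, and 9.86 and 10.07 at 120 min. In si-miR-20a cells it read 9.54 and 9.33, then 9.61 and 9.63, then 9.90 and 9.94, and at 120 min 10.18 and 10.28. In si-miR-671 cells the same times gave 9.47 and 9.40, 9.49 and 9.59, 9.98 and 10.02, and 10.20 and 10.16. Every array at 60 min lay above every array at 0 min, and so did every array at 120 min. The difference from 0 min was 0.47 ± 0.05 (SE) at 60 min (adjusted p = 1.99e-05) and 0.70 ± 0.05 at 120 min (adjusted p = 1.33e-07).

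HMGCS1 joins acetyl-CoA and acetoacetyl-CoA in the cytosol. Its control arrays read 10.08 and 10.18 at 0 min, 10.10 and 10.27 at 30 min, 10.34 and 10.31 at 60 min, and 10.46 and 10.63 at 120 min. The si-miR-20a arrays read 10.30 and 10.10, 10.31 and 10.42, 10.35 and 10.57, and 10.87 and 10.88 at the same times. The si-miR-671 arrays read 9.97 and 10.12, 10.09 and 10.09, 10.57 and 10.55, and 10.69 and 10.63. As with INSIG1, the arrays at 60 and at 120 min did not overlap those at 0 min. The difference was 0.32 ± 0.06 at 60 min (adjusted p = 0.0045) and 0.57 ± 0.06 at 120 min (adjusted p = 6.7e-06). With the mean taken over control and si-miR-20a cells only, in the fit of all 24 arrays, the change of HMGCS1 at 60 min was 0.23 with an adjusted p of 0.15.

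**Figure D2:**
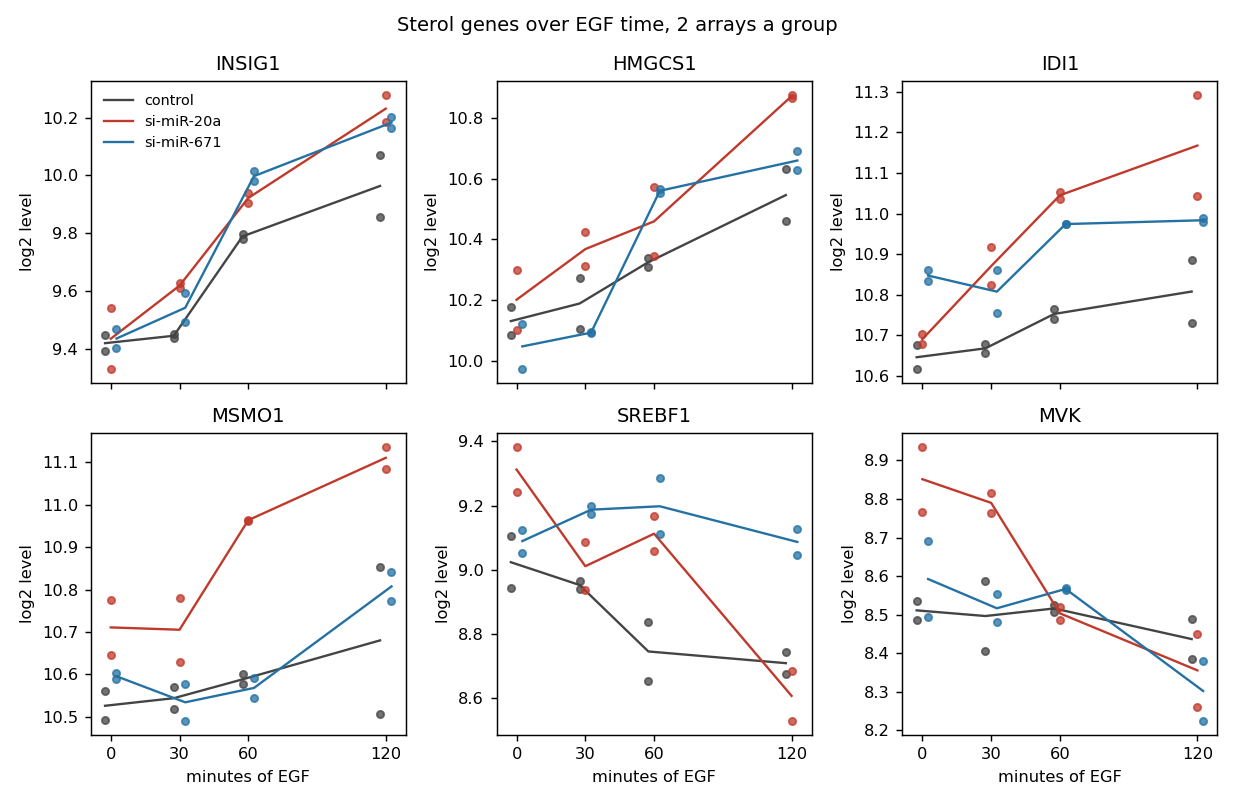
Log2 level (y axis) against minutes of EGF (x axis) for 6 sterol genes; points are single arrays, lines join the means of 2 arrays, and colours mark the transfection. INSIG1 and HMGCS1 climb in all 3 transfections, whereas SREBF1 stays near 9.1 in the si-miR-671 cells and ends at 8.69 and 8.53 in the si-miR-20a cells.

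Of the other genes between mevalonate and farnesyl diphosphate, the isomerase IDI1 was higher by 0.20 ± 0.05 at 60 min (adjusted p = 0.046) and by 0.26 ± 0.05 at 120 min (adjusted p = 0.0022). Its levels ran from 10.62 to 10.86 with a median of 10.69 at 0 min, and from 10.73 to 11.29 with a median of 10.98 at 120 min, so that the times overlapped. The call at 60 min was lost without any 1 of the 12 arrays, with adjusted p from 0.082 to 0.14. MVK, which phosphorylates mevalonate, went the other way, from a median of 8.61 (8.49 to 8.94) at 0 min to 8.38 (8.22 to 8.49) at 120 min, a fall of 0.29 ± 0.06 (adjusted p = 0.0030). In control cells its mean changed little, by -0.07, from 8.51 to 8.44. The means went from 8.85 to 8.36 in si-miR-20a cells and from 8.59 to 8.30 in si-miR-671 cells. The differences for PMVK, MVD and FDPS, the kinase, decarboxylase and synthase of the same stretch, did not pass the test, and the median of the 6 genes was -0.05.

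Both squalene steps passed the test at 120 min, in opposite directions. SQLE, the squalene epoxidase, rose by 0.18 ± 0.04 (adjusted p = 0.013), while LSS, which closes lanosterol's rings, fell by 0.22 ± 0.06 (adjusted p = 0.025). Among the 7 late sterol genes, the lanosterol demethylase CYP51A1 rose by 0.23 ± 0.05 and the methylsterol oxidase MSMO1 by 0.26 ± 0.06, and the sterol reductase TM7SF2 fell by 0.21 ± 0.06 (adjusted p = 0.0041, 0.0070 and 0.046). The remaining late genes, NSDHL, EBP, SC5D and DHCR7, had differences between -0.05 and 0.11 that did not pass. The calls of LSS and TM7SF2 were lost without any 1 of 8 of the 12 arrays, namely both control and both si-miR-671 arrays at 0 min, the first si-miR-20a array at 0 min, the second control and second si-miR-20a array at 120 min and the first si-miR-671 array at 120 min. The adjusted p was then 0.054 to 0.077 for LSS and 0.088 to 0.14 for TM7SF2.

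SREBF1, which encodes SREBP-1, fell while INSIG1 rose. In control cells SREBF1 read 9.10 and 8.94 at 0 min, 8.96 and 8.94 at 30 min, 8.65 and 8.84 at 60 min, and 8.67 and 8.74 at 120 min. In si-miR-20a cells it read 9.38 and 9.24, 9.09 and 8.94, 9.17 and 9.06, and 8.69 and 8.53. In si-miR-671 cells it read 9.13 and 9.05, 9.20 and 9.17, 9.11 and 9.29, and 9.13 and 9.05. The last of these groups ended where it began. The mean over the transfections fell by 0.34 ± 0.06 at 120 min (adjusted p = 0.000805). SREBF2, which encodes SREBP-2, the main regulator of the sterol genes, differed by 0.03 (95% interval -0.11 to 0.18), and SCAP by -0.05 (-0.15 to 0.05). INSIG2 differed by 0.18 (adjusted p = 0.15).

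Both NPC1, which takes cholesterol out of lysosomes, and STARD4, which carries it between membranes, rose at 120 min. NPC1 read 8.92 to 9.13 (median 9.02) at 0 min and 9.18 to 9.39 (median 9.26) at 120 min. The ranges were apart, and the difference was 0.26 ± 0.04 (adjusted p = 0.00078). STARD4 was higher by 0.23 ± 0.05 (adjusted p = 0.0066), with overlapping arrays, and NPC2, the soluble partner of NPC1, lower by a difference that did not pass. INSIG1, HMGCS1 and NPC1 were the 3 genes of the list whose arrays at 120 and 0 min did not overlap. How many of all probe sets did the same was not counted. Of the fatty acid genes, the elongase ELOVL6 rose by 0.17 ± 0.04 (adjusted p = 0.011), and FASN, SCD, ACACA, ACLY, FADS1, FADS2 and ACSS2 lay between -0.08 and 0.09. If only the 12 arrays compared were fitted, SQLE, LSS, CYP51A1, TM7SF2, MSMO1, STARD4 and ELOVL6 lost their calls, with adjusted p from 0.061 to 0.18. With the mean taken over control and si-miR-20a cells only, in the fit of all 24 arrays, 8 genes were higher and 2 lower. Of all probe sets 9.59% were then called in either direction. TM7SF2 (-0.16, adjusted p = 0.26), LSS (-0.23, 0.063) and ELOVL6 (0.16, 0.054) lost their calls in that setting.

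The promoters of INSIG1 and HMGCS1, the genes of largest rise, and of SREBF2, were set side by side because most genes of this list are known SREBP targets. These 3 were chosen after their values were seen. SREBF2 did not pass the test at 120 min, and it is the 1 searched gene in which the sterol regulatory element named below was found. Its match is therefore not one of a gene called at 120 min. Each sequence is the 250 bases before the gene's start in RefSeq's table on GRCh38.p14, at chr7:155297628-155297877 on the plus strand for INSIG1, chr5:43313413-43313662 on the minus strand for HMGCS1 and chr22:41832855-41833104 on the plus strand for SREBF2. Capitals mark the sterol regulatory element searched for (SRE, TCACNCCAC, or GTGGNGTGA on the other strand) and the CCAAT box (CCAAT, or ATTGG on the other strand), which is bound by the SREBP partner NF-Y.
INSIG1: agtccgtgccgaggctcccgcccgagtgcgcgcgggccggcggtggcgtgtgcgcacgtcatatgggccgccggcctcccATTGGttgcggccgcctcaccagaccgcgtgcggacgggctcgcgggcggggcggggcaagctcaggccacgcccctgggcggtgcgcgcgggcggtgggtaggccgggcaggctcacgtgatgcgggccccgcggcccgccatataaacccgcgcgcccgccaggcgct
HMGCS1: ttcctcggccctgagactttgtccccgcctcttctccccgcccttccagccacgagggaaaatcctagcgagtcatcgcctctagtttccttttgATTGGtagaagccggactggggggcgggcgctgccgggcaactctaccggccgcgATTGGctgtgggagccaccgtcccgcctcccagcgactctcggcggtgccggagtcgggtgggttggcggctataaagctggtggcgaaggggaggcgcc
SREBF2: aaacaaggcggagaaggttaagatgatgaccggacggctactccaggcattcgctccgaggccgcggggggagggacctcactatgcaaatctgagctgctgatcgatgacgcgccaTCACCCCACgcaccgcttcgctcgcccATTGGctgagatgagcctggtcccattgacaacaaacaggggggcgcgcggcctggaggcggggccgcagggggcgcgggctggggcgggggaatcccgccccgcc

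INSIG1 held 1 CCAAT box, at -170 from the start, and HMGCS1 held 2, at -155 and -100. SREBF2 was the 1 gene of the 29 searched with the letters of the SRE, at -133, and it had a CCAAT box at -106. SQLE and FASN were measured but had no promoter to search. Of the 29 measured genes with an entry in the table, 1 held the SRE letters, beside 0.884% of 15843 protein-coding promoters of the same length, 18 held a CCAAT box, beside 34.5%, and 27 a GC box (GGGCGG, or CCGCCC on the other strand), beside 56%. Matches of different motifs did not overlap in the genes of the list, while matches of the GC box can share bases with each other, as in INSIG1. Such letters are a description of these windows. Elements elsewhere, or with other letters, were not searched for.

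How the EGF change compared between the transfections was asked next, since each has its own 0 min arrays. In the control cells alone, 2 genes were called at 120 min against 0 min, both higher, beside 2.17% of all probe sets called higher and 0.791% lower. They were INSIG1 (0.54 ± 0.09, adjusted p = 0.0015) and HMGCS1 (0.41 ± 0.10, adjusted p = 0.035). The call of HMGCS1 was lost without any 1 of the 4 control arrays, with adjusted p of 0.27 and 0.11 without the first and second at 0 min and 0.055 and 0.22 without the first and second at 120 min. In the si-miR-671 cells the same 2 genes were called (INSIG1 0.75 ± 0.09, HMGCS1 0.61 ± 0.10), beside 3.22% of all probe sets higher and 2.73% lower.

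In the si-miR-20a cells 8 genes were called higher and 3 lower at 120 min, where 4.49% of all probe sets were higher and 3.14% lower. Those higher were INSIG1 (0.80), HMGCS1 (0.67), STARD4 (0.49), IDI1 (0.48), MSMO1 (0.40), CYP51A1 (0.36), SQLE (0.33) and NPC1 (0.31). Those lower were SREBF1 (-0.71 ± 0.10, a 1.63-fold fall, adjusted p = 0.00041), MVK (-0.50) and FASN (-0.37). Without the second si-miR-20a array at 120 min 4 of these 8 and 1 of these 3 were called, beside 2.43% of all probe sets in either direction. INSIG1 (0.75), HMGCS1 (0.66), STARD4 (0.42), IDI1 (0.35) and SREBF1 (-0.63) kept their calls, and the other 6 had adjusted p from 0.090 (MVK) to 0.34 (FASN). For SREBF1 the change in the control cells was -0.31 (adjusted p = 0.13), and in the si-miR-671 cells it was 0.00 with an interval from -0.21 to 0.21.

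These counts do not show that the responses differ. The test of the difference itself, over the 3 later times together, called 0 of the 31 genes for si-miR-20a against control, where 0.0154% of all probe sets (3 in number) were called. It gave an unadjusted p under 0.05 for 4 genes, MVK, SREBF1, STARD4 and FASN, and a smallest adjusted p of 0.85. For si-miR-671 against control 0.0514% of all probe sets (10) and 0 of the 31 genes were called. Here 5 genes had an unadjusted p under 0.05, and the smallest adjusted p, for FASN, was 0.37. For neither test was the share of all probe sets at an unadjusted p under 0.05 counted.

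**Figure D3:**
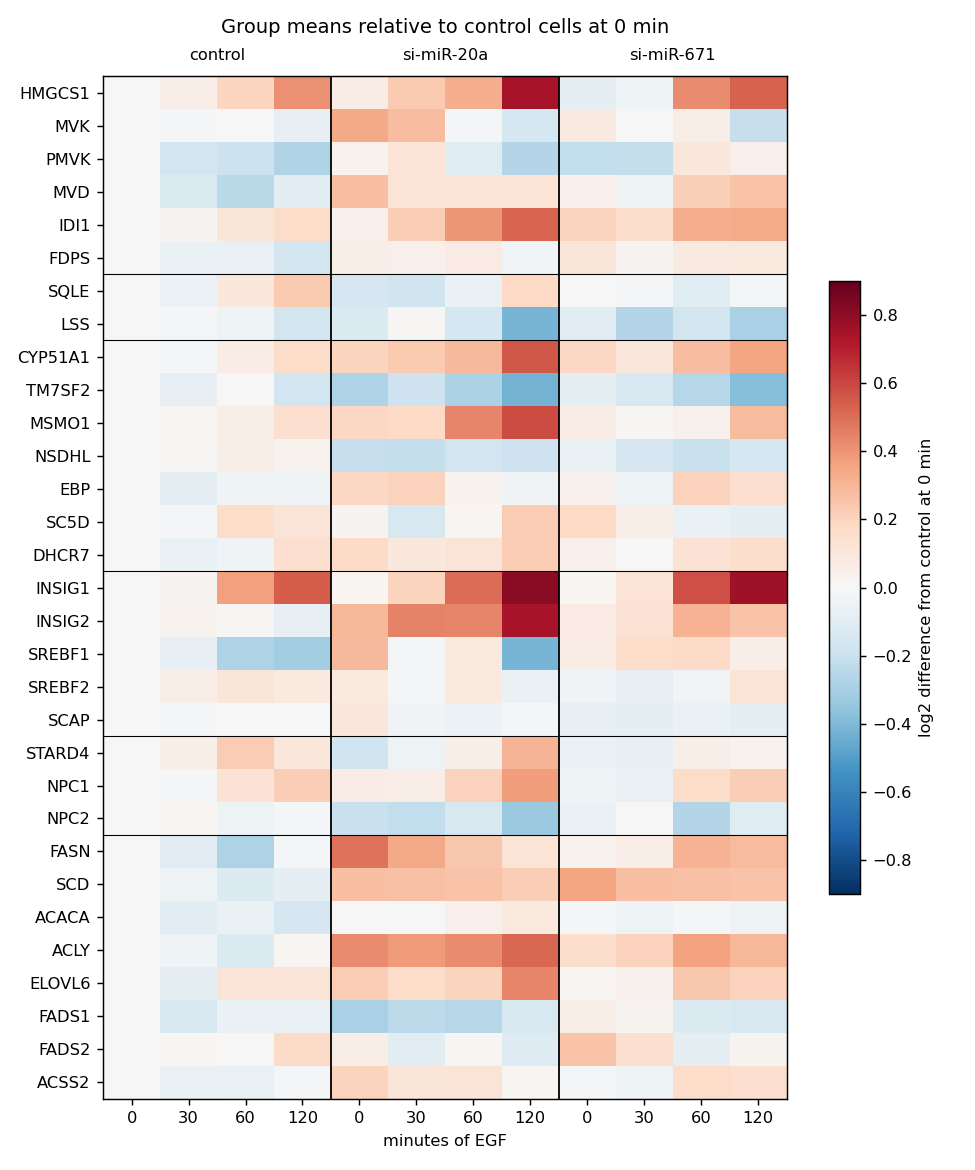
Mean log2 level of each gene in each of the 12 groups minus its mean in control cells at 0 min; rows are genes ordered by role, columns are minutes of EGF within each transfection, and colour gives the difference, from -0.42 to 0.81. INSIG1 and HMGCS1 darken with time in all 3 blocks, and ACLY and SCD are raised at all 4 times in both targeted blocks.

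The effect of the oligonucleotide directed at miR-20a was then taken over the 4 times (8 arrays against 8). Relative to the non-targeting control, 14 of the 31 genes were higher and 5 lower. The largest increases were in INSIG2 and in the enzymes that make fatty acids: ACLY, which cuts citrate to cytosolic acetyl-CoA, FASN, the fatty acid synthase, and SCD, the stearoyl-CoA desaturase. Over all probe sets 11.9% were called higher and 12.7% lower. The median difference of the 31 genes was 0.13, beside 0.01 over all probe sets. When probe sets below the median level were left out, 22 genes were called, 17 higher and 5 lower, beside 42.6% of the probe sets kept. Without the second si-miR-20a array at 120 min 18 were higher and 5 lower (22.8% of all probe sets in either direction). When only the 16 arrays compared were fitted, 14 genes were called (21.2% of all probe sets), and INSIG1 (adjusted p = 0.058), ACSS2 (0.052), FADS1 (0.055), SREBF1 (0.070) and SQLE (0.078) lost their calls.

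INSIG2 showed the largest difference, 0.49 ± 0.07 (1.41-fold, adjusted p = 8.17e-05). In control cells it read 8.26 and 8.24 at 0 min, 8.28 and 8.28 at 30 min, 8.30 and 8.23 at 60 min, and 8.24 and 8.10 at 120 min. In si-miR-20a cells it read 8.52 and 8.57, 8.78 and 8.62, 8.66 and 8.72, and 8.75 and 9.23. In si-miR-671 cells it read 8.27 and 8.39, 8.50 and 8.26, 8.63 and 8.49, and 8.63 and 8.38. All 8 si-miR-20a arrays lay above all 8 control arrays, and the second si-miR-20a array at 120 min was the highest by far. At 120 min alone the difference was 0.82 ± 0.14 (adjusted p = 0.0019), and without that array 0.58 ± 0.13 (adjusted p = 0.026).

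ACLY was nearly as far apart and varied less. Its control arrays read 10.32 and 10.26 at 0 min, 10.23 and 10.27 at 30 min, 10.18 and 10.14 at 60 min, and 10.34 and 10.28 at 120 min. The si-miR-20a arrays read 10.67 and 10.77, 10.71 and 10.63, 10.70 and 10.74, and 10.73 and 10.89. The si-miR-671 arrays read 10.42 and 10.47, 10.46 and 10.53, 10.56 and 10.74, and 10.65 and 10.54, all above the control arrays. ACLY was higher in si-miR-20a cells by 0.48 ± 0.04 (1.39-fold, adjusted p = 1.22e-06), and it was called at each of the 4 times taken alone, by 0.42 to 0.56.

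FASN read 9.84 and 9.70 in control cells at 0 min, 9.68 and 9.66 at 30 min, 9.47 and 9.51 at 60 min, and 9.90 and 9.62 at 120 min. In si-miR-20a cells it read 10.25 and 10.27, 10.20 and 10.02, 10.04 and 9.99, and 10.00 and 9.79. In si-miR-671 cells it read 9.84 and 9.77, 9.82 and 9.84, 10.07 and 10.09, and 10.07 and 10.04. From 0 to 120 min the si-miR-20a cells fell by 0.37 (adjusted p = 0.036), a call that was lost without their second array at 120 min (-0.26, adjusted p = 0.34). The difference in the si-miR-671 cells, 0.25 ± 0.10, did not pass (adjusted p = 0.16), and the tests of the response against control had adjusted p of 0.93 and 0.37. Over the 4 times FASN was higher in si-miR-20a cells by 0.40 ± 0.05 (adjusted p = 3.48e-05), and the arrays of both groups overlapped.

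SCD places the first double bond in a saturated fatty acid. Its control arrays ran from 10.80 to 11.00 with a median of 10.91, its si-miR-20a arrays from 11.19 to 11.30 with a median of 11.23, and its si-miR-671 arrays from 11.19 to 11.37 with a median of 11.26. Both targeted groups were thus apart from control at all times. The difference was 0.32 ± 0.03 for si-miR-20a (adjusted p = 7.75e-06). Of the other fatty acid genes, ELOVL6 was higher by 0.22 and the acetyl-CoA synthetase ACSS2 by 0.15, the latter without a call at 0 and 30 min alone (adjusted p = 0.057) or at 60 and 120 min alone (0.28). The desaturase FADS1 was lower by 0.17, which left ACACA and FADS2 without a call among the 8.

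**Figure D4:**
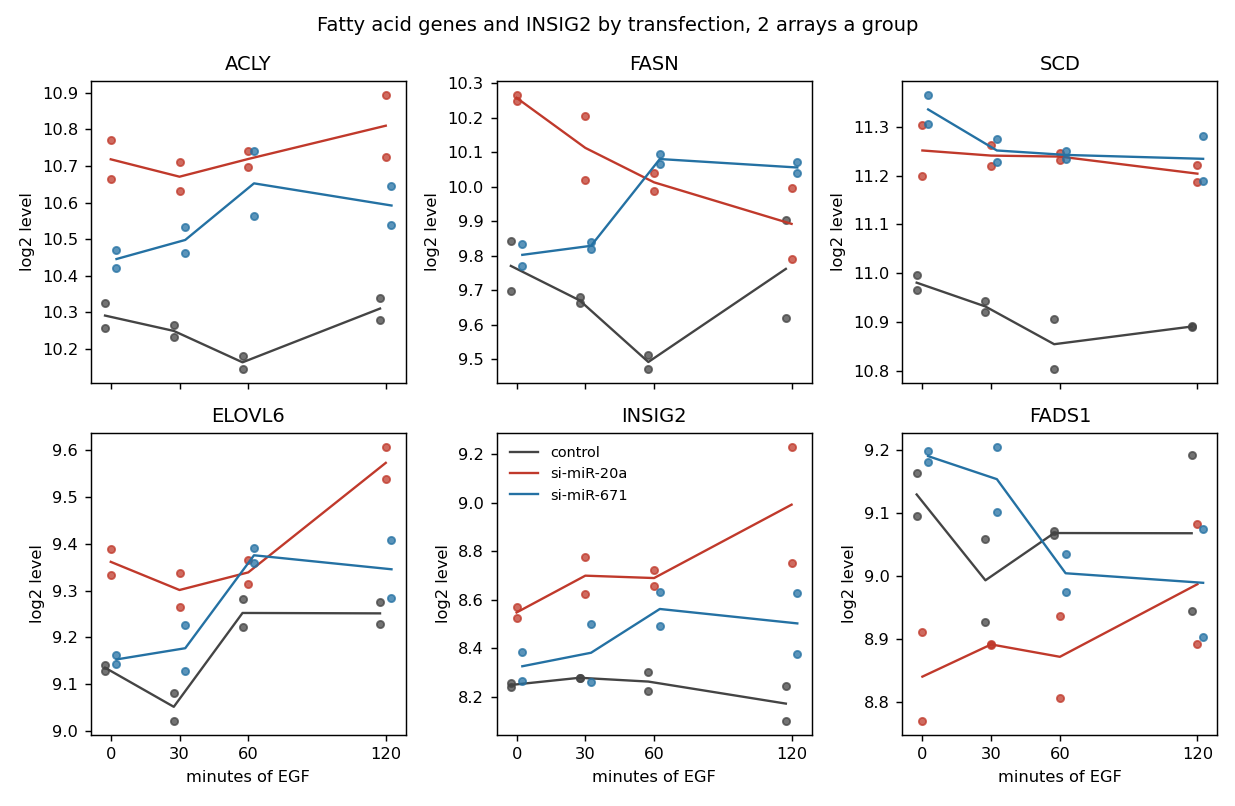
Log2 level (y axis) against minutes of EGF (x axis) for 5 fatty acid genes and INSIG2; points are single arrays, lines join the means of 2 arrays, and colours mark the transfection. For ACLY and SCD all arrays of both targeted transfections lie above all control arrays.

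Of the sterol enzymes, MSMO1 (0.29 ± 0.05), MVD (0.28 ± 0.05), CYP51A1 (0.27 ± 0.04), IDI1 (0.22 ± 0.04), HMGCS1 (0.18 ± 0.05) and DHCR7 (0.14 ± 0.04) were higher in si-miR-20a cells. CYP51A1 ran from 9.94 to 10.44 there and from 9.70 to 9.93 in control cells, without overlap. TM7SF2 (-0.23 ± 0.06), the sterol dehydrogenase NSDHL (-0.22 ± 0.05), NPC2 (-0.21 ± 0.05) and SQLE (-0.12 ± 0.04) were lower, NSDHL without overlap. Of the regulators SREBF1 and INSIG1 were each higher by 0.15, while SREBF2 differed by -0.04 (-0.16 to 0.09) and SCAP by 0.00 (-0.08 to 0.09). INSIG2, ACLY, SCD, CYP51A1 and NSDHL were the 5 genes whose 8 arrays a side did not overlap. The share of all probe sets without overlap in this comparison was not counted, so the 5 are a description only. SQLE lost its call without any 1 of 9 arrays (adjusted p 0.053 to 0.073), SREBF1 without any 1 of 9 (0.057 to 0.092) and FADS1 without any 1 of 6 (0.051 to 0.064). For SQLE these were the second control array at 0 min, the second at 30 min, both at 60 min and the first at 120 min, with the second si-miR-20a array at 0 min, the first at 30 min, the second at 60 min and the first at 120 min. For SREBF1 they were the second control array at 0 min, both at 30 min, the first at 60 min and the first at 120 min, with the first si-miR-20a array at each time. For FADS1 they were the second control array at 0 min and the first at 30 and 120 min, with the second si-miR-20a array at 0 and 60 min and the first at 120 min.

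The earlier and later times were also taken apart. At 0 and 30 min 9 genes were called higher and 0 lower (4.79% and 7.17% of all probe sets), and at 60 and 120 min 11 higher and 2 lower (8.95% and 7.75%), or 10 and 1 without the second si-miR-20a array at 120 min (12.2% of all probe sets in either direction). SCD, ACLY, FASN, ELOVL6, INSIG2, CYP51A1 and MVD were called in both. IDI1 and MSMO1 were called at the later times (0.33 and 0.40) and had differences of 0.12 and 0.17 at the earlier ones. MVK was higher by 0.32 at 0 and 30 min and differed by -0.05 at 60 and 120 min. The test of late minus early called 0 of the 31 genes and 0.00514% of all probe sets, with 3 genes at an unadjusted p under 0.05 and a smallest adjusted p of 0.50 (MVK), so no gene is shown to differ between the earlier and later times.

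The oligonucleotide directed at miR-671-5p was compared with the same 8 control arrays, so that the 2 comparisons with control are not independent of each other. Here 9 genes were higher and 1 lower, where 6.79% and 7.7% of all probe sets were, and the median difference was 0.05, beside 0.00 over all probe sets. SCD led with 0.35 ± 0.03 (1.28-fold, adjusted p = 5.21e-06), followed by ACLY (0.29 ± 0.04), SREBF1 (0.28 ± 0.05), FASN (0.27 ± 0.05), MVD (0.24 ± 0.05), IDI1 (0.18 ± 0.04), CYP51A1 (0.18 ± 0.04), FDPS (0.15 ± 0.04) and INSIG1 (0.14 ± 0.04). NSDHL was lower by 0.16 ± 0.05. SCD, ACLY and FDPS were the 3 genes without overlap, and here too the share of all probe sets without overlap was not counted. When probe sets below the median level were left out, 15 genes were called, 11 higher and 4 lower, beside 27% of the probe sets kept. INSIG2, the gene of largest difference in si-miR-20a cells, differed by 0.20 here (0.06 to 0.35, adjusted p = 0.060).

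Of the 10 calls, 3 hung on single arrays. That of INSIG1 (adjusted p = 0.047) was lost without any 1 of the 16 arrays except the second control array at 120 min, with adjusted p from 0.054 to 0.11, and it was 0.055 with the replicate number as a block. NSDHL lost its call without any 1 of 12 arrays (0.051 to 0.090), that is, all but the first control array at 0 min, the first control array at 120 min, the first si-miR-671 array at 30 min and the second at 120 min. FDPS lost it without the second si-miR-671 array at 0 min (0.054) or the first at 60 min (0.053).

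**Figure D5:**
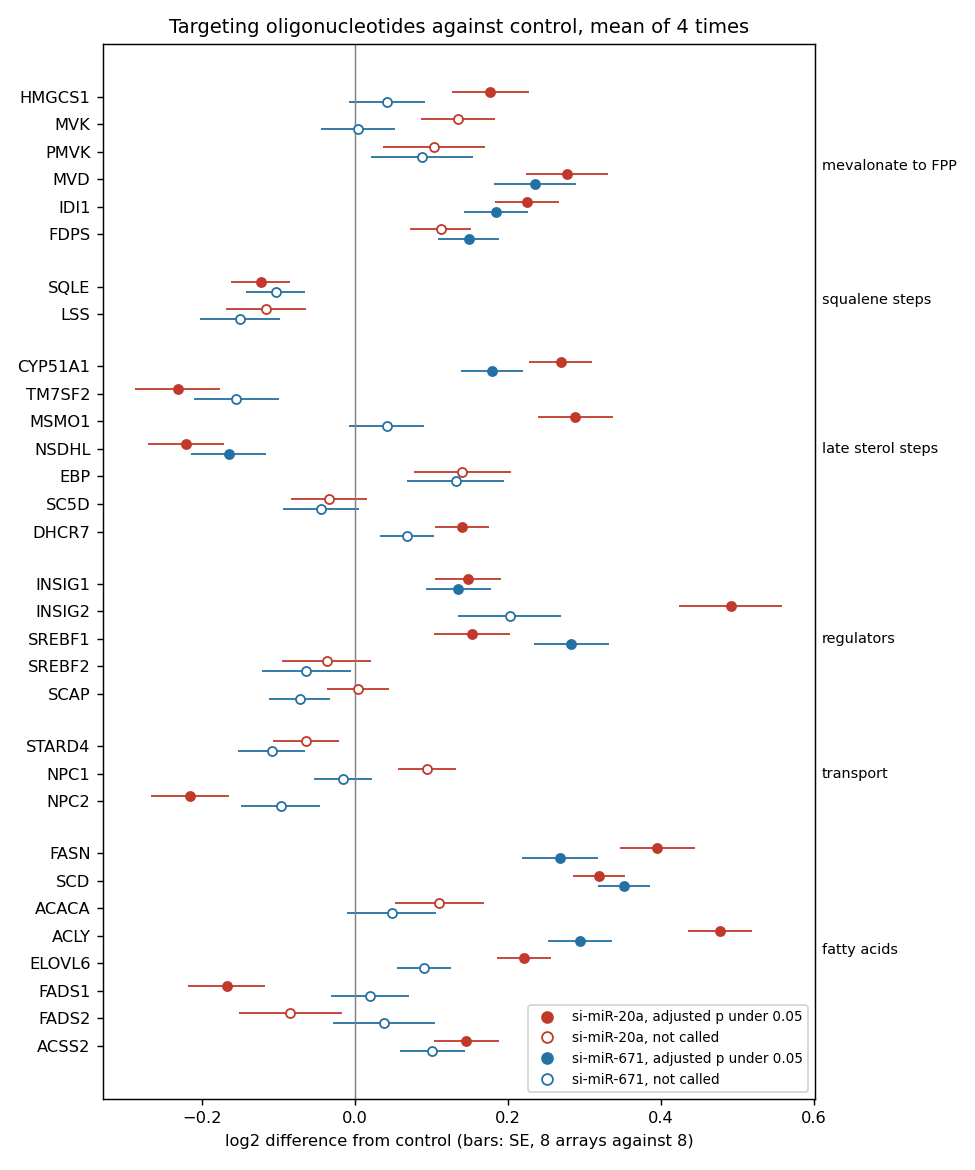
Log2 difference from control, averaged over 4 times, for each of the 31 measured genes in si-miR-20a and si-miR-671 cells, with the standard error of the model as bars (8 arrays against 8, and the 8 control arrays are the same in both); filled points have an adjusted p under 0.05. ACLY (0.48 and 0.29), FASN (0.40 and 0.27) and SCD (0.32 and 0.35) are right of 0 in both, and INSIG2 is at 0.49 and 0.20.

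For si-miR-671 the earlier and later times were taken apart in the same way. At 0 and 30 min SCD alone was called, higher by 0.34 ± 0.05, where 1.36% of all probe sets were higher and 1.44% lower. At 60 and 120 min 12 genes were higher and 2 lower, where 7.04% and 8.37% were. FASN differed by 0.10 at the earlier times and by 0.44 at the later ones, SREBF1 by 0.15 and 0.42, MVD by 0.06 and 0.41, and PMVK by -0.13 and 0.31. SQLE differed by 0.02 and then by -0.23. The test of late minus early called 0 of the 31 genes and 0.519% of all probe sets, with a smallest adjusted p of 0.13 (FASN). An unadjusted p under 0.05 was found for 10 genes. The share of all probe sets at that unadjusted threshold was not counted, here or in the same test for si-miR-20a.

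Set directly against each other (8 arrays against 8), the 2 targeted transfections differed in 5 genes, 4 higher in si-miR-20a cells (2.38% of all probe sets) and 1 lower (2.16%). MSMO1 was higher in si-miR-20a cells by 0.25 ± 0.05 (adjusted p = 0.010), from 10.63 to 11.14 with a median of 10.87 against 10.49 to 10.84 with a median of 10.59. INSIG2 was higher by 0.29 ± 0.07 (adjusted p = 0.025), ACLY by 0.18 ± 0.04 (0.023) and ELOVL6 by 0.13 ± 0.04 (0.0495), and FADS1 was lower by 0.19 ± 0.05 (0.049). The arrays of each of the 5 genes overlapped, and the median difference of the 31 genes was 0.04, beside 0.01 over all probe sets. The call of MSMO1 was kept without any 1 array. INSIG2 and ACLY lost theirs without any 1 of 7 arrays (adjusted p 0.060 to 0.070 and 0.058 to 0.066). For both these were the first si-miR-671 array at 0 min and the second at 120 min, with the second si-miR-20a array at 0 min, the first at 30 min and the second at 60 min, and beside them the second si-miR-671 array at 30 and 60 min for INSIG2 and the first at those times for ACLY. ELOVL6 lost its call without any 1 of 14 arrays (0.057 to 0.12), all but the first arrays of both groups at 120 min. FADS1 lost it without any 1 of 13 (0.052 to 0.12), all but the first si-miR-671 array and the second si-miR-20a array at 120 min and the first si-miR-20a array at 0 min. With the replicate number as a block these last were at 0.054 and 0.057.

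The promoters of INSIG2, ACLY and SCD are shown as those of largest difference in the si-miR-20a comparison, which made the most calls among these genes. FASN has no entry in the table. Positions and capitals are as above, at chr2:118088221-118088470 on the plus strand for INSIG2, chr17:41919023-41919272 on the minus strand for ACLY and chr10:100346983-100347232 on the plus strand for SCD.
INSIG2: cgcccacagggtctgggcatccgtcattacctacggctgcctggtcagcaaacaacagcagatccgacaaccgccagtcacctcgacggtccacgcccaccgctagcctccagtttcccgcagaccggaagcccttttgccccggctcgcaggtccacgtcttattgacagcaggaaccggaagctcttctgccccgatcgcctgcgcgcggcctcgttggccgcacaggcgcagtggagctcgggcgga
ACLY: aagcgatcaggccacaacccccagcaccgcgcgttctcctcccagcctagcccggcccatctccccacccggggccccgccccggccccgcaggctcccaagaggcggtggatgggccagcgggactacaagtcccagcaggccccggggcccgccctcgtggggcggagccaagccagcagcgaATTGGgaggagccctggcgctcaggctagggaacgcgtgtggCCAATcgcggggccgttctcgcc
SCD: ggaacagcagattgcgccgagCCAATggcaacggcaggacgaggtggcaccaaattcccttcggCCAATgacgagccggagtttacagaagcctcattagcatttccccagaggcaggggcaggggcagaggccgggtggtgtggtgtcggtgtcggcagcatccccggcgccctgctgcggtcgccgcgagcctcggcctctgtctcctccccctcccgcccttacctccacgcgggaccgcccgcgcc

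ACLY held 2 CCAAT boxes, at -65 on the other strand and -23, and SCD held 2, at -229 and -186. In this window of INSIG2 neither the CCAAT nor the SRE letters were found.

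Genes of the same pathways outside the list were counted from 3 further lists. Beside them, 7.13% of all probe sets were called higher and 6.27% lower at 120 min of EGF, 11.9% and 12.7% with si-miR-20a, and 6.79% and 7.7% with si-miR-671, and a list with counts near these shares is not set apart by them. Of 11 measured genes of the mevalonate branches and further sterol steps, 2 were called higher and 0 lower at 120 min of EGF. They were LBR, a nuclear envelope protein with sterol reductase activity (0.32), and PGGT1B, a subunit of the enzyme that attaches geranylgeranyl groups to proteins (0.22). With si-miR-20a 4 were higher and 1 lower, led by LBR, here lower (-0.44), PGGT1B (0.28), DHDDS (0.23), of dolichol synthesis, and COQ2 (0.23), of coenzyme Q synthesis. With si-miR-671 PDSS1, which builds the coenzyme Q side chain, was higher (0.36) and LBR lower (-0.27). The medians of the 11 genes were 0.07 at 120 min of EGF, -0.02 with si-miR-20a and -0.02 with si-miR-671, beside 0.01, 0.01 and 0.00 over all probe sets.

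Of 9 genes of SREBP processing and sterol sensing, FBXW7, the ubiquitin ligase subunit that marks active SREBPs for breakdown, was lower at 120 min of EGF (-0.31, without overlap). With si-miR-20a PAQR3 (0.50), which tethers SCAP at the Golgi, ERLIN1 (0.40), an endoplasmic reticulum protein that restrains SREBP activation, and MBTPS2 (0.28), a protease that releases SREBPs, were higher without overlap, and 0 were lower. PAQR3 (0.42) and ERLIN1 (0.37) were also higher with si-miR-671. Lack of overlap was not particular to this list. With si-miR-20a it was also found for DHDDS, ME1, ETFDH, LRPAP1, OSBPL2 and OSBP of the other lists. The share of all probe sets without overlap was not counted in these comparisons. The median over the 9 genes was 0.06 at 120 min of EGF, beside 0.01 over all probe sets, and 0.00 with si-miR-20a and 0.02 with si-miR-671, beside 0.01 and 0.00 over all probe sets.

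Of 20 further genes of fatty acid synthesis, elongation and activation, 1 was higher and 1 lower at 120 min of EGF, the elongase ELOVL7 (0.31) and the acyl-CoA synthetase ACSL1 (-0.18). With si-miR-20a 6 were higher and 4 lower, of which the largest were ME1 (-0.43), which supplies NADPH, SLC27A4 (0.34), a fatty acid transport protein, ACSL1 (-0.26) and ELOVL5 (0.25). With si-miR-671 2 were higher and 4 lower, of which the largest were ACSL1 (-0.39), ACSL5 (-0.37), SLC27A4 (0.34) and ACSL4 (-0.27). ACSL5 averaged 5.52 there against 5.89 in control cells, below the lowest array median of 6.56. The medians of the 20 genes were -0.04 at 120 min of EGF, 0.06 with si-miR-20a and -0.02 with si-miR-671.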

How the data were processed

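RNA of 24 samples was measured on Affymetrix Human Gene 1.0 ST arrays. The deposited values are log2 levels per probe set that the authors had normalized and summarised. Affymetrix Expression Console is named in the submitters' processing notes, without a version; the normalization method is not given in those sources. The number of arrays limits the precision.

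Of 33297 probe sets, the 19460 with exactly 1 gene symbol were tested, 1754 had several symbols and 12083 none in the table used. Gene IDs of 19429 matched RefSeq's table, which changed 0 symbols. A mean per group was fitted to all 24 arrays with limma 3.58.1 in R 4.3.3 (lmFit, eBayes, 12 residual degrees of freedom, prior degrees of freedom 2.57, prior SD 0.136). Differences are log2 with the standard error of the model, and p-values were adjusted by Benjamini and Hochberg's method over all probe sets tested. The scripts were tested on simulated data.

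The genes and lists were chosen with earlier results of these data known. The values of every array are given for genes called with a size of at least 0.5 (log2) in any comparison, or for up to 4 of smallest p, and up to 4 called genes of each further list are named. Replicate numbers did not pair the arrays consistently: over 66 pairs of groups, deviations correlated at -0.57 to 0.55 (median 0.063), 30 of them above 0.1. Some groups thus shared deviations between their replicates, in the same or the opposite sense. Apart from the replicate block, the model treats the arrays as independent, and the cause of the sharing was not tested. Alternatives were the replicate block, all probe sets, no dim probe sets, a variance trend, a second quantile normalization, only the arrays compared, fewer times or transfections, and each array left out. Further comparisons at 120 min were also fitted without each si-miR-20a array of that time, chosen after seeing the data.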

Additional observations from a re-analysis of the deposited data

Results flagged for a closer look

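CYP51A1, the lanosterol demethylase, has a second probe set of its own, which was among the 19460 tested but did not stand for the gene in the values above, because the other one was brighter. It too was higher than in control cells, by 0.18 with si-miR-20a (adjusted p = 0.0033 in limma's fit of all 33297 probe sets, as is the next) and by 0.15 with si-miR-671 (adjusted p = 0.021), against 0.27 and 0.18 for the brighter probe set. At 120 min of EGF the second probe set differed by 0.08 (adjusted p = 0.31, also in the fit of all 33297 probe sets), where the brighter one rose by 0.23.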

How the results depend on the processing

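Over 52 changes of single genes and 1130 other settings, 943 kept direction and call, 187 kept the direction and lost the call, and 0 reversed; 16 kept the call in every setting and 38 without any 1 array. The counts of genes called moved as follows, each with the share called over all probe sets tested. At 60 min of EGF (3 genes, 2.66%) 5 were called without dim probe sets (5.85%) and 5 with a variance trend (2.97%). With the mean taken over control and si-miR-20a cells only, 1 was called (2.05%). At 120 min (13, 13.4%) 6 were called with only the arrays compared (7.14%). In control cells (2, 2.96%) 1 was called with all probe sets tested (1.68%), 0 with only the arrays compared (0.2%) and 1 without any 1 array (1.6% to 2.65%). For si-miR-20a against control (19, 24.5%) 9 were called at 0 and 30 min alone (12%), and for si-miR-671 (10, 14.5%) 1 (2.81%). Between the targeted transfections (5, 4.54%) 3 were called with the replicate block (4.88%), 3 with all probe sets tested (1.97%), 1 with only the arrays compared (1.9%) and 1 to 5 without 1 array (2.46% to 7.77%). Without either of the si-miR-20a arrays at 120 min, a setting chosen after seeing the data, 5 to 15 genes were called for EGF at 120 min in si-miR-20a cells (11; 2.43% to 13.8%) and 2 to 8 for si-miR-20a against control at 120 min (7; 3.03% to 14.6%), the lower count without the second array in both. Among these single-gene changes, the replicate block ended the calls of INSIG1, ELOVL6 and FADS1 given above and no others. The cause of these changes was not tested, apart from fewer arrays or more probe sets in the fit.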

Other observations

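Lipid storage and breakdown genes, from lists of their own, are given here. Beside their counts, 7.13% of all probe sets were called higher and 6.27% lower at 120 min of EGF, 11.9% and 12.7% with si-miR-20a, and 6.79% and 7.7% with si-miR-671, with medians of 0.01, 0.01 and 0.00. Of 10 glycerolipid genes, 4 were lower and 0 higher at 120 min of EGF (median -0.18): LPIN3 (-0.36), PNPLA3 (-0.31), and DGAT2 (-0.23) and DGAT1 (-0.19), which make triglycerides. With si-miR-20a 3 were higher and 2 lower, the largest being LPIN3 (0.52), PNPLA3 (0.29) and DGAT2 (-0.29), and with si-miR-671 PNPLA3 was higher (0.27) and DGAT2 lower (-0.41), with medians of 0.14 and 0.13. Of 11 genes of fatty acid oxidation, 1 was lower at 120 min of EGF, the acyl-CoA dehydrogenase ACADVL (-0.20), a count near the share of all probe sets. With si-miR-20a 1 was higher, ETFDH (0.30), and 5 lower, led by PPARGC1A (-0.32) and the carnitine transferase CPT2 (-0.29). With si-miR-671 PDK4, a kinase that shuts off pyruvate use, was lower (-0.36) and ETFDH higher (0.12). Both PPARGC1A and PDK4 read below the array medians, of which the lowest was 6.56. PPARGC1A averaged 6.05 in si-miR-20a cells against 6.37 in control cells (adjusted p = 0.048 by limma), and PDK4 averaged 5.57 in si-miR-671 cells against 5.93. The medians of the 11 genes were -0.10, -0.09 and -0.10.

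Of 7 genes regulated by the sterol-sensing LXR receptors, 2 were lower at 120 min of EGF, both without overlap between 6 arrays and 6: MYLIP, a ubiquitin ligase that removes lipoprotein receptors (-0.64 ± 0.05, adjusted p = 7.8e-07), and the sterol exporter ABCG1 (-0.43 ± 0.06). The share of all probe sets without overlap was not counted. MYLIP was already lower at 60 min (-0.24) and was also lower in control cells alone at 120 min (-0.46). It was higher with si-miR-20a (0.16) and lower with si-miR-671 (-0.15), and NR1H3, which encodes an LXR, was lower with both (-0.63 and -0.40). The medians of the 7 genes were 0.0046, -0.04 and -0.06. Of 14 genes of sterol uptake, transport and esterification, 2 were higher at 120 min of EGF, GRAMD1B (0.48), which moves cholesterol from the plasma membrane, and ACBD3 (0.22). With si-miR-20a 5 were higher and 2 lower, led by LRPAP1 (-0.41), ACBD3 (0.29), OSBPL2 (0.26) and OSBP (0.23), and with si-miR-671 1 was higher and 2 lower, led by LRPAP1 (-0.31). The medians of the 14 genes were 0.05, 0.07 and 0.05.

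The probe set shared by HSD17B7 and its pseudogene differed by -0.23 at 120 min of EGF (adjusted p = 0.054), by -0.06 with si-miR-20a and by -0.10 with si-miR-671. The second si-miR-20a array at 120 min held the highest of all 24 values for ACACA, ACLY, CYP51A1, ELOVL6, HMGCS1, IDI1, INSIG1, INSIG2, MSMO1 and STARD4, and the lowest for EBP, LSS, PMVK, SREBF1 and SREBF2. Without it 4 genes in place of 5 were called between the targeted transfections (3.55% of all probe sets in place of 4.54%).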
